A study of Mus musculus with 8 samples.

Results

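Glycogen is the branched glucose store of the cell, and the genes described here encode proteins that build it, take it apart or steer the enzymes that do so. The 9 genes were Ppp1r3b, Ppp1r3c, Ppp1r3d, Gys1, Gys2, Gbe1, Ugp2, Pygb and Pygl. They were selected on the measured RNA difference between the genotypes compared below, because Ppp1r3b was among the largest decreases, and the other 8 were added as genes of the same pathway. Their values in this comparison are therefore a description and carry no test. They are 9 of the 31053 genes in the count table, and all 9, each protein coding, were among the 8930 genes with enough counts to be compared.

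RNA was measured by bulk sequencing of brown adipose tissue (BAT), the fat that burns lipid to make heat, from 4 wild-type (WT) and 4 Ucp1Δ/Δ mice, each mouse a separate library. Ucp1Δ/Δ mice, labelled ATGLKO, come from crossing Pnpla2 fl/fl mice with mice whose Cre recombinase is driven by the Ucp1 promoter, so that adipose triglyceride lipase (ATGL, encoded by Pnpla2), the enzyme that opens triglyceride breakdown, is lost from UCP1-expressing adipocytes while other cells of the tissue keep it. All mice were labelled as strain C57BL6/J and 10 weeks of age, and the study's methods give male mice and normal diet. The methods state that tissue was taken after fasting where they describe the study's obesity models. They give no feeding state where they describe the Ucp1Δ/Δ mice. The study's legend for this comparison gives a younger age than the labels. Whether the WT mice carried the floxed allele is not given in the sources used here. The labels also give the cell type as stromal vascular fraction, the non-adipocyte part of fat. Adipocyte transcripts were nevertheless abundant, with Ucp1 at 2719 ± 1281 CPM (counts scaled to a common library size; mean ± SD, n = 4) in WT, so the libraries hold adipocyte RNA.

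Libraries held 2017697 to 3115956 counts in WT and 2240612 to 2941799 in Ucp1Δ/Δ, and 3 counts correspond to 0.933 to 1.53 CPM. Pnpla2 fell from 2913 ± 191 to 474 ± 59.2 CPM, with every Ucp1Δ/Δ mouse below every WT mouse (log2 fold change, log2FC, -2.62, SE 0.17, adjusted p = 1.97e-07 by edgeR's quasi-likelihood test), which matches the labels. The summed CPM of 8 macrophage markers was 83.5 to 123 in WT and 804 to 1324 in Ucp1Δ/Δ, with 7 of 7 tested markers called higher and Adgre1 at 2.11 ± 2.06 and 15.3 ± 2.97 CPM. The sum of 4 fibroblast markers was 98.2 to 168 and 496 to 1011, with 4 of 4 called higher. That of 4 endothelial markers was 112 to 146 and 161 to 173, with 0 of 3 tested markers called. The sum of 12 brown adipocyte markers was 15400 to 26938 in WT and 11964 to 17852 in Ucp1Δ/Δ. A two-sided exact permutation test on the log2 sums gave p = 0.0571, where 0.0286 is the smallest these 8 mice allow. In each sum the markers with the highest levels weigh most. In bulk tissue, fewer cells of a type and less RNA per cell cannot be told apart, so each level below is a level in the whole tissue, and the part of this change of cell makeup in the glycogen genes was not tested.

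Synthesis of glycogen starts from glucose phosphate, which UDP-glucose pyrophosphorylase (Ugp2) turns into the activated sugar. Glycogen synthase (Gys1, Gys2) adds that sugar to a growing chain, the branching enzyme (Gbe1) places branch points, and glycogen phosphorylase (Pygb, Pygl, Pygm) releases glucose phosphate again. Protein phosphatase 1 activates the synthase and turns off the phosphorylase, and the Ppp1r3 subunits are the adaptors that hold it on the glycogen particle. Brown adipocytes store glycogen, and fasting, feeding and adrenergic stimulation are known to change that store.

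Of the 9 genes, 3 were called lower in Ucp1Δ/Δ BAT at an adjusted p under 0.05, namely Ppp1r3b, Pygl and Gbe1. The background was 7.63% of all genes tested, or 681 of 8930, and scaling by total counts alone turned the split over all genes from 681 lower and 1191 higher into 404 and 1478. The same 3 genes were those in which every Ucp1Δ/Δ mouse lay below every WT mouse, against 9.37% of all genes. By edgeR 0 of the 9 were called higher, also 0 at an unadjusted p under 0.05 and 0 by DESeq2 or limma, beside a background of 13.3%. No member had every Ucp1Δ/Δ mouse above every WT mouse, as 14.4% of all genes did. The log2FC was below 0 in 7 members and above 0 in 2, with a median of -0.31, where the median of all genes tested was -0.0087. Because the same contrast chose the genes, nothing is read from these counts.

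Of the 9 genes, the widest difference was that of an adaptor of protein phosphatase 1. Ppp1r3b encodes the subunit known as GL, abundant in liver, and lies at chr8:35375739-35388139 on the plus strand of mm10. It measured 136, 273, 152 and 114 CPM in WT mice 1 to 4 and 16.3, 32.0, 53.1 and 24.5 CPM in Ucp1Δ/Δ mice 1 to 4. The lowest WT mouse, at 114 CPM, stood well above the highest Ucp1Δ/Δ mouse, at 53.1 CPM, and the groups did not overlap. Mean levels were 169 ± 71.2 and 31.5 ± 15.8 CPM (SD, n = 4 each), so Ucp1Δ/Δ BAT held 18.6% of the WT level. The log2FC was -2.43 (SE 0.33), a 5.39-fold lower level, and it ranked 10 from the lowest of the 8930 genes. The raw counts were 226 to 610 in WT and 46 to 127 in Ucp1Δ/Δ. Mice of the same genotype differed by a coefficient of variation of 42.1% in WT and 50.1% in Ucp1Δ/Δ, whereas counting error alone gives 5.13% and 11.1%, so most of the spread lay between mice and not in the depth.

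Ppp1r3c encodes the adaptor named protein targeting to glycogen (PTG) and lies at chr19:36731731-36736653 on the minus strand. Its levels were 27.5, 56.9, 38.1 and 10.1 CPM in WT mice 1 to 4 and 16.3, 18.0, 28.0 and 15.9 CPM in Ucp1Δ/Δ mice 1 to 4. WT mouse 4 was the lowest of all 8 mice and WT mouse 2 the highest, and the groups overlapped. The log2FC of -0.78 (SE 0.36) was not called. It moved to -0.42 without WT mouse 2 and to -1.08, with a call, without WT mouse 4. Ppp1r3d, the adaptor also known as R6, lies at chr2:178411206-178414472 on the minus strand. It measured 13.9 ± 6.52 CPM in WT and 11.2 ± 3.05 in Ucp1Δ/Δ, with a range of 6.12 to 22.0 in WT that enclosed all Ucp1Δ/Δ mice (log2FC -0.31, SE 0.32). With a mouse left out it ran from -0.55 without WT mouse 1 to -0.014 without WT mouse 2. That gene rested on 12 to 49 counts per mouse.

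**Figure D1:**
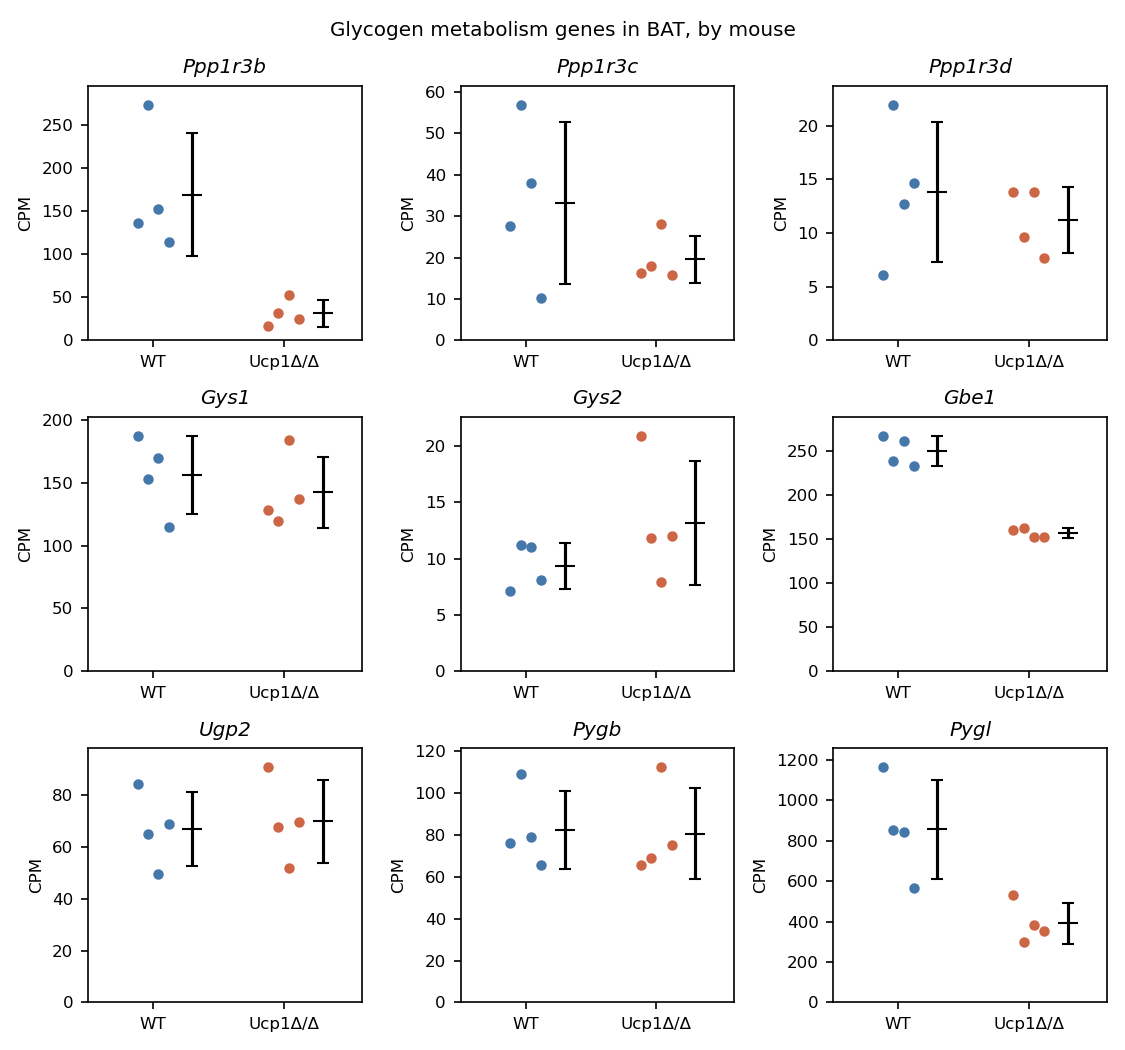
Level of each of the 9 glycogen genes in BAT (vertical axis, CPM, from 0) for the 4 WT and 4 Ucp1Δ/Δ mice. Points are mice in the order 1 to 4, and the black bar beside each group is the mean ± SD. Ppp1r3b, Gbe1 and Pygl have no overlap between genotypes, and the other 6 genes overlap.

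The counts of the 3 adaptors can also be set out as shares within each mouse, which restate the lower Ppp1r3b that chose the genes and are no separate result. Of all counts for the 3 adaptors in a mouse, Ppp1r3b held 75.0 to 82.2% in WT and 35.1 to 55.9% in Ucp1Δ/Δ. The share of Ppp1r3c was 7.27 to 18.8% in WT and 29.5 to 35.1% in Ucp1Δ/Δ, and that of Ppp1r3d 3.60 to 10.5% and 14.5 to 29.8%. The ranges of all 3 shares were separate between genotypes, although the mean CPM of Ppp1r3c and Ppp1r3d were themselves lower in Ucp1Δ/Δ, since a lower Ppp1r3b raises the shares of the other 2. The mean share of Ppp1r3b was 78.7 ± 3.12% and 48.9 ± 9.42%, a difference of -29.8 percentage points. Shares of this kind need no scaling between libraries, and since they are counts per gene and not per length, they compare genotypes and not the abundance of the adaptors.

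**Figure D2:**
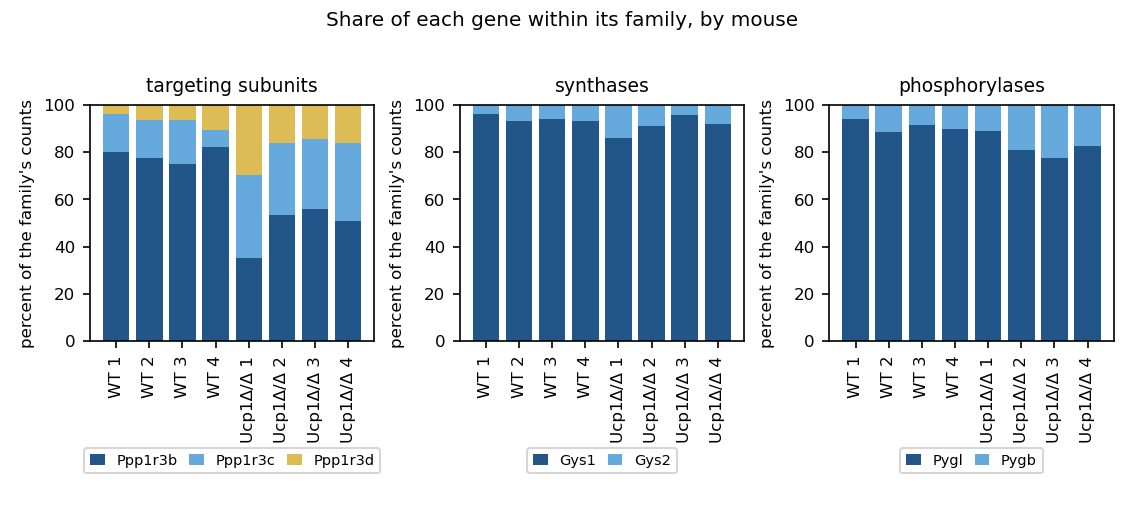
Share of each gene (vertical axis, percent of the family's counts) within the targeting subunits, the synthases and the phosphorylases, 1 stacked bar per mouse. Ppp1r3b takes 75.0 to 82.2% of the adaptor counts in WT and 35.1 to 55.9% in Ucp1Δ/Δ, while the shares of Gys2 and of Pygb overlap between genotypes.

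The branching enzyme differed with little spread between mice. Gbe1, at chr16:70313949-70569716 on the plus strand, creates the branch points of the polymer, and its loss in humans causes a glycogen storage disease. It measured 268, 239, 262 and 234 CPM in WT mice 1 to 4 and 160, 163, 153 and 152 CPM in Ucp1Δ/Δ mice 1 to 4. The genotypes were far apart compared with the spread inside each, at 251 ± 16.7 and 157 ± 5.55 CPM. Ucp1Δ/Δ BAT thus held 62.7% of the WT level (log2FC -0.67, SE 0.15). The coefficient of variation was 6.67% in WT and 3.53% in Ucp1Δ/Δ, close to the 4.23% and 4.90% of counting error alone.

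The synthase isoforms and the supply of UDP-glucose did not separate. Gys1, the widely expressed synthase, lies at chr7:45434844-45456619 on the plus strand and measured 187, 153, 169 and 115 CPM in WT mice 1 to 4 and 128, 120, 183 and 137 CPM in Ucp1Δ/Δ mice 1 to 4. Both groups spanned nearly the same range (log2FC -0.14, SE 0.19, and -0.27 to -0.051 with a mouse left out). Exons of Gys1 overlap those of Ruvbl2 on the opposite strand, by up to 290 bases for a pair of exons. Ruvbl2 had 95 counts in all 8 mice together, and what the overlap did to the counts of Gys1 was not tested. Gys2, the isoform typical of liver, lies at chr6:142422613-142473109 on the minus strand and measured 9.37 ± 2.05 CPM in WT and 13.2 ± 5.47 in Ucp1Δ/Δ on 14 to 59 counts per mouse (log2FC 0.48, SE 0.30, and 0.17 without Ucp1Δ/Δ mouse 1). Ucp1Δ/Δ mouse 1 was the highest at 20.9 CPM, and the other 3 ran from 7.94 to 12.0, within or just above the WT range of 7.14 to 11.2. Its share of the synthase counts was 3.67 to 6.81% in WT and 4.15 to 14.0% in Ucp1Δ/Δ, with overlap. Ugp2, at chr11:21321138-21371201 on the minus strand, was 66.9 ± 14.1 CPM in WT and 69.9 ± 16.1 in Ucp1Δ/Δ (log2FC 0.070, SE 0.20).

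Among the phosphorylases, the liver isoform was lower and the brain isoform did not separate. Pygl, at chr12:70190811-70231488 on the minus strand, measured 1167, 854, 842 and 565 CPM in WT mice 1 to 4 and 532, 297, 384 and 353 CPM in Ucp1Δ/Δ mice 1 to 4. All Ucp1Δ/Δ mice were below all WT mice, but WT mouse 4 at 565 was close to Ucp1Δ/Δ mouse 1 at 532. Mean levels were 857 ± 246 and 392 ± 101 CPM, leaving 45.7% of the WT level (log2FC -1.13, SE 0.23, 2.19-fold lower). Pygb, the isoform named for brain, lies at chr2:150786735-150831758 on the plus strand. It was 76.0, 109, 78.8 and 65.3 CPM in WT mice 1 to 4 and 65.5, 69.1, 112 and 75.1 CPM in Ucp1Δ/Δ mice 1 to 4. Those ranges were nearly the same, and the sign of its log2FC of -0.034 (SE 0.21) changed with the scaling and with the mice used. As a share of the counts of both isoforms, Pygb was 6.11 to 11.3% in WT and 10.9 to 22.6% in Ucp1Δ/Δ, with the ranges overlapping slightly.

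**Figure D3:**
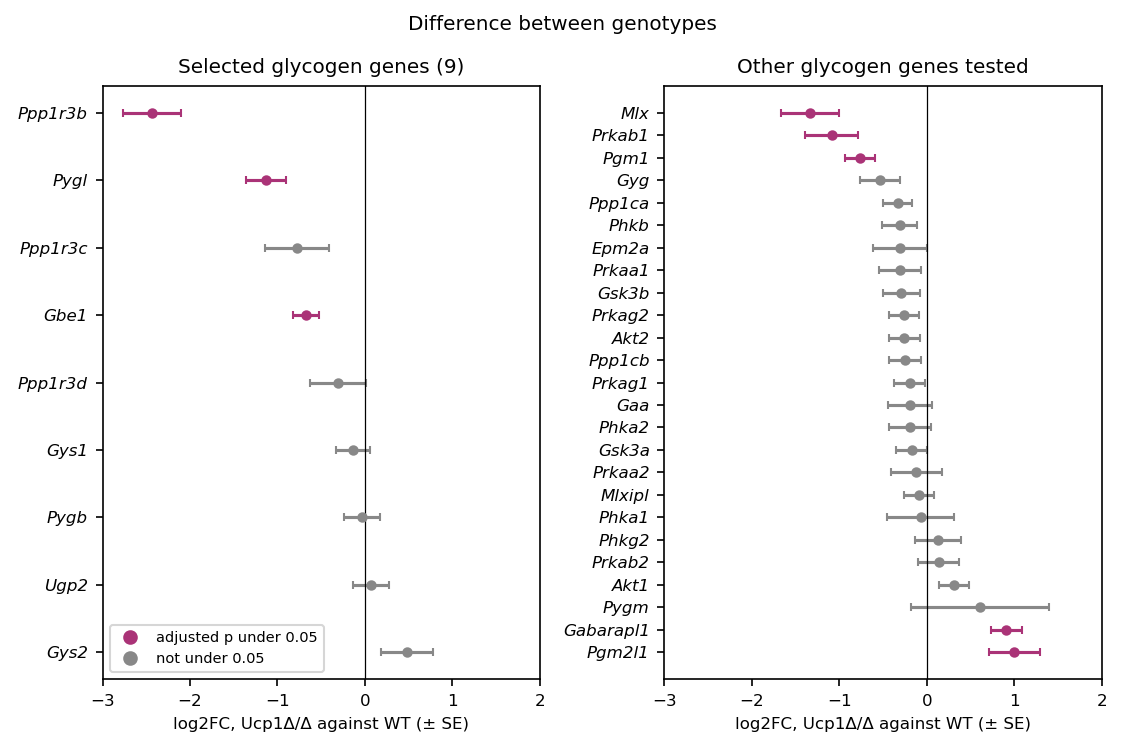
log2FC of Ucp1Δ/Δ against WT (horizontal axis, ± SE) for the 9 selected glycogen genes and for other glycogen genes tested, coloured by whether the adjusted p was under 0.05. Ppp1r3b stands lowest at -2.43, and the coloured genes of the wider list lie on both sides of 0.

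Promoter sequences of Pygl, Gbe1 and Ppp1r3c are printed around 1 RefSeq start each. The first 2 are enzyme genes that were called lower, and the third is an adaptor gene that was not called. RefSeq (GRCm38.p6) gave a window of 250 bases before to 50 after the start for 7 of the 9 genes, in 8 entries, and not for Ppp1r3b and Gys2. Each is printed 5′ to 3′ on the strand of the gene, in lower case, with a motif match in capitals. The motifs sought on both strands were the E-box CACGTG, which carbohydrate-responsive and clock factors bind, the nuclear receptor motif AGGTCA, the cyclic AMP response element TGACGTCA, the FOXO site GTAAACA and the TATA box TATAAA. The Pygl window is chr12:70227634-70227933 (minus strand), with 1 nuclear receptor motif in reverse at -128 from the start. This window lies inside the gene span given above, whose 5′ end is at 70231488. The RefSeq start used for Pygl thus differs from that end, and the window is not upstream of the whole gene. The Gbe1 window is chr16:70313699-70313998 (plus strand), with no match. The Ppp1r3c window is chr19:36736555-36736854 (minus strand), with 1 E-box at -104.
Pygl: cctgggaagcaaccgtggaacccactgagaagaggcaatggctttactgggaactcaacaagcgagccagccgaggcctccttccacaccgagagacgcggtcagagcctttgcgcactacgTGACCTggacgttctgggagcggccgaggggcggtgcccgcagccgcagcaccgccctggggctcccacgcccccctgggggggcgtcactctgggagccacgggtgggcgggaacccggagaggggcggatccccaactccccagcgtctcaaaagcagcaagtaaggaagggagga
Gbe1: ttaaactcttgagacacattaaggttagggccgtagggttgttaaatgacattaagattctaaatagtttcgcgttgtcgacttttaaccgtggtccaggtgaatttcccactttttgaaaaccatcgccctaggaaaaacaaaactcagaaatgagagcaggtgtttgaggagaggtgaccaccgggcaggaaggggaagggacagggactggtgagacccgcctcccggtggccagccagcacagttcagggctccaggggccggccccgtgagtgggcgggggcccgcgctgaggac
Ppp1r3c: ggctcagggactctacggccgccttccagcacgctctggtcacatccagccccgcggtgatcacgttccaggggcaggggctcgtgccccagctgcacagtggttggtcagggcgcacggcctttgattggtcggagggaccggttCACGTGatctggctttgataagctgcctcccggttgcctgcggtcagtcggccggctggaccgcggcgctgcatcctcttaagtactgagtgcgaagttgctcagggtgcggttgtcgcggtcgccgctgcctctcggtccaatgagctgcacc
An E-box was present in 2 of the 8 entries (Ppp1r3c and Ppp1r3d) and in 7.15% of all 32851 promoter windows. The nuclear receptor motif was present in 1 of 8, Pygl, and in 16.3% of all windows. The other motifs had 0 matches in the 8 entries, where 1.79% of all windows held the cyclic AMP response element, 3.65% the FOXO site and 13.6% the TATA box. A match describes letters in the window and is not evidence of binding.

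The wider pathway was read from a list of 36 further genes. Of these, 26 had enough counts to be tested, 3 were called lower and 2 higher by edgeR's quasi-likelihood test, with p adjusted over all genes tested by Benjamini-Hochberg. The backgrounds were again 7.63% and 13.3%. The log2FC was below 0 in 20 and above 0 in 6, with a median of -0.22 against -0.0087 for all genes tested. By role, calls fell in the supply of glucose phosphate (1 lower and 1 higher of 3) and lysosomal breakdown (1 higher of 2). Others fell in kinases and kinase subunits linked to the synthase (1 lower of 10) and glucose-responsive transcription (1 lower of 2).

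Pgm1, the phosphoglucomutase that links glucose 6-phosphate with glucose 1-phosphate, lies next to the synthesis steps above. It fell from 226 ± 20.8 to 133 ± 20.1 CPM with no overlap (log2FC -0.76, SE 0.17, adjusted p = 0.00378). Its exons overlap those of Itgb3bp (101 counts in all) on the opposite strand, by up to 398 bases for a pair of exons. What this overlap did to the counts of Pgm1 was not tested. Its relative Pgm2l1, which makes glucose 1,6-bisphosphate, rose from 6.27 ± 1.61 to 12.5 ± 3.68 CPM (log2FC 1.0, SE 0.29, adjusted p = 0.0233), and this call was lost without WT mouse 2 (adjusted p = 0.054), WT mouse 3 (0.0758) or Ucp1Δ/Δ mouse 4 (0.0942). Gyg, the glycogenin that primes a new particle, was 77.9 ± 27.4 and 53.6 ± 7.75 CPM (log2FC -0.54, SE 0.23, adjusted p = 0.113) and moved to -0.32 without WT mouse 2 (adjusted p = 0.278) and to -0.73, with a call, without WT mouse 4 (adjusted p = 0.0133). Prkab1, an AMP-activated kinase subunit with a glycogen-binding module, fell from 9.28 ± 2.46 to 4.37 ± 0.972 CPM (log2FC -1.09, SE 0.30, adjusted p = 0.0186). That call was lost without WT mouse 2 (adjusted p = 0.0508), Ucp1Δ/Δ mouse 1 (0.053) or Ucp1Δ/Δ mouse 3 (0.0556).

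Mlx, the partner with which the glucose sensor ChREBP (Mlxipl) binds DNA, fell from 14.0 ± 4.56 to 5.63 ± 2.38 CPM (log2FC -1.34, SE 0.33, adjusted p = 0.00923). Its groups overlapped, since WT mouse 2 at 7.62 CPM was below Ucp1Δ/Δ mouse 3 at 9.19, and the call was lost without the mouse of each genotype richest in muscle RNA (adjusted p = 0.0876). Its exons overlap those of Psmc3ip (6 counts in all) on the opposite strand, by up to 385 bases for a pair of exons. What this overlap did to the counts of Mlx was not tested. Mlxipl itself was 55.1 ± 7.90 and 51.8 ± 6.57 CPM (log2FC -0.086, SE 0.17, adjusted p = 0.776). Gabarapl1, an autophagy protein linked to the delivery of glycogen to lysosomes, rose from 237 ± 35.0 to 445 ± 81.4 CPM with no overlap (log2FC 0.91, SE 0.18, adjusted p = 0.00169). The 4 phosphorylase kinase subunits tested ranged from -0.31 to 0.13 in log2FC and were not called.

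The remaining 10 genes of the list had 9 to 65 counts in all 8 mice together and were not tested. They include 4 further adaptors, Ppp1r3a, Ppp1r3e, Ppp1r3f and Ppp1r3g. Ppp1r3e, singled out after its values were seen, was 4.48 to 5.68 CPM in WT and 0.418 to 2.48 CPM in Ucp1Δ/Δ, without overlap. It rested on 9 to 17 counts per WT mouse and 1 to 7 per Ucp1Δ/Δ mouse.

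Skeletal muscle RNA differed widely from mouse to mouse, and muscle is known to be rich in glycogen enzymes. The summed level of 11 muscle markers was 1777, 119, 24.4 and 845 CPM in WT mice 1 to 4 and 394, 2501, 79.0 and 1106 CPM in Ucp1Δ/Δ mice 1 to 4. A two-sided exact permutation test on the log2 sums gave p = 0.6. Acta1, a marker in that sum, was 109 ± 128 CPM in WT and 156 ± 163 in Ucp1Δ/Δ. Pygm, the muscle phosphorylase, was 74.4, 9.86, 0.668 and 34.4 CPM in WT and 15.9, 98.3, 6.69 and 53.7 CPM in Ucp1Δ/Δ. The 8 mice stood in the same order for Pygm as for the marker sum. Its log2FC was 0.61 (SE 0.79, adjusted p = 0.641). Within WT, mice 2 and 3, with the least muscle RNA, had the highest Ppp1r3b (273 and 152 CPM) and Ppp1r3c (56.9 and 38.1 CPM), but Ppp1r3d was higher in mouse 4 (14.7 CPM) than in mouse 3 (12.7 CPM). Within Ucp1Δ/Δ, Ppp1r3b showed no such order, at 53.1, 16.3, 24.5 and 32.0 CPM from the mouse with the least to the mouse with the most muscle RNA. With the muscle level as a covariate the log2FC was -2.30 for Ppp1r3b, -1.12 for Pygl and -0.68 for Gbe1. Without the mouse of each genotype richest in muscle RNA it was -2.51, -0.82 and -0.65. The same 3 genes were called lower in both alternatives. In the second, Pygl and Gbe1 each had an adjusted p of 0.0432 by edgeR's quasi-likelihood test. Since the genotype contrast chose the genes, these calls are a description.

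**Figure D4:**
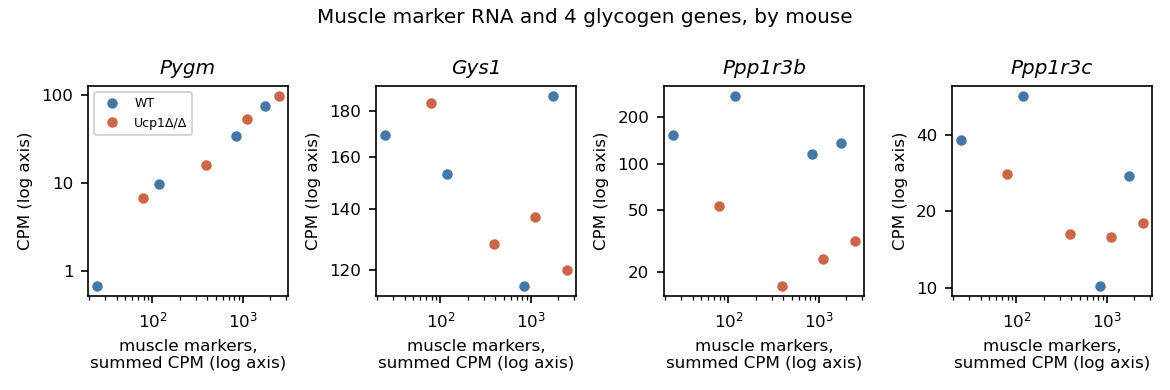
CPM of Pygm, Gys1, Ppp1r3b and Ppp1r3c (vertical axes, log) against the summed CPM of 11 skeletal muscle markers (horizontal axes, log), 1 point per mouse, coloured by genotype. Pygm rises with the marker sum across both genotypes, while for Ppp1r3b every WT mouse lies above every Ucp1Δ/Δ mouse. The marker sums ran from 24.4 to 1777 CPM in WT and from 79.0 to 2501 CPM in Ucp1Δ/Δ.

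The 12 brown adipocyte markers give the scale of adipocyte transcripts beside these genes. Their log2FC ran from -1.96 (Elovl3, a fatty acid elongase) to 1.45 (Dio2, the thyroid hormone activating deiodinase), with a median of -0.42, and 5 were called lower and 1 higher. Pygl at -1.13 and Gbe1 at -0.67 lay inside that range. Ppp1r3b, chosen for its large decrease, was below it at -2.43 (SE 0.33), beside -1.96 (SE 0.48) for Elovl3. Its position is therefore a description only. Markers of hepatocytes, a cell type known for Ppp1r3b, Gys2 and Pygl, had at most 3 counts per gene and mouse, and the 6 neutrophil markers at most 12.

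The 5 genes with the profile most like Ppp1r3b were found by the root mean square distance between log2 CPM values centred on each gene's mean over the 8 mice. They were Egln3 (0.408), H2-Q10 (0.446), Gm35853 (0.457), Nat8l (0.481) and Angptl8 (0.483), where the median over 8929 genes was 1.37. Egln3, an oxygen-sensing prolyl hydroxylase, was 10.6 ± 5.02 CPM in WT and 2.33 ± 1.10 in Ucp1Δ/Δ. Gm35853 was 8.57 ± 3.15 and 1.31 ± 0.871 CPM. Egln3 at 0.708 CPM in Ucp1Δ/Δ mouse 1 and Gm35853 at 0.429 CPM in Ucp1Δ/Δ mouse 4 were below 3 counts. The distances of these genes thus rest partly on few counts. Nat8l, which makes N-acetylaspartate in brown fat, was 119 ± 29.1 and 32.6 ± 8.43 CPM, and Angptl8, a regulator of lipoprotein lipase induced by feeding, was 29.2 ± 9.22 and 5.61 ± 1.25 CPM. H2-Q10 belongs to a family of similar class I genes whose reads can be shared. The other members were more distant, with Pygl at 0.949, Ppp1r3c at 1.05 and Gbe1 at 1.05. These distances are a description, since all 8 mice share the genotype difference that chose Ppp1r3b.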

How the data were processed

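RNA from the BAT of 4 WT and 4 Ucp1Δ/Δ mice was sequenced single-end for 75 cycles from 50 ng of total RNA by the NEGEDIA Digital mRNA-seq service. The authors deposited raw counts per Ensembl gene and a table of normalized values. The deposited log2 values equal log2 of the count times 1 factor per mouse plus 1. The study's methods name bbduk, STAR, mm10 and HTSeq, whereas the submitters' processing notes name Trimmomatic, HISAT2, DESeq2, GRCm38 and mm10. Strandedness of the counting is not given in the sources used here. Symbols were found for 30934 of 31053 identifiers, and gene positions refer to mm10.

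Counts were filtered with filterByExpr, scaled by TMM and compared with edgeR 4.0.16 (R 4.3.3; quasi-likelihood test, genotype only), with Benjamini-Hochberg adjustment over all 8930 genes tested and a threshold of 0.05. CPM are counts over TMM-scaled library sizes, and log2 CPM used a prior count of 2. The log2 of the summed marker CPM was compared by two-sided exact permutation tests on the difference of means. The p-values set the difference between genotypes against the spread between mice.

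The 9 genes, the 36 further genes, the marker lists and the tests were chosen with earlier results of these data known. Named genes were the 9, Pnpla2, every other glycogen gene with an adjusted p under 0.05, Pygm, Gyg, the 5 nearest profiles to Ppp1r3b, and Ucp1, Adgre1 and Acta1. Mlxipl, Ppp1r3e, Elovl3 and Dio2 were named after their values were seen. Of the genes named by this rule, 1 is not reported here. Alternatives were other scalings, filters and tests (DESeq2 1.42.0, limma 3.58.1), a replicate block, and each mouse left out, and 2 alternatives on muscle RNA were added after seeing the data. No 2 libraries of a genotype were the same within sampling noise (chi-square over degrees of freedom 4.69 to 23.2). Same-numbered mice deviated together at correlations of -0.196 to 0.304. Mice with different numbers were not compared, so whether the replicate numbers pair the mice is not settled. The main test treated the mice as unpaired.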

Additional observations from a re-analysis of the deposited data

Results flagged for a closer look

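In the 36 groups of 4 mice examined, 2 held a mouse set far from the other 3, where chance gives about 1 in 20 groups, or 1.8 here. Pgm2l1 in Ucp1Δ/Δ mouse 4 was at 4.23 log2 CPM and the other 3 Ucp1Δ/Δ mice were at 3.47 to 3.56, so the gap was 0.885 of the whole range. Mlx in Ucp1Δ/Δ mouse 3 was at 3.32 log2 CPM and the other 3 at 2.34 to 2.47, a gap of 0.868 of the range.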

How the results depend on the processing

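Depth of 2017697 to 3115956 counts per mouse limited the weakly expressed genes. Of the 9 genes, 3 to 4 were called lower over 8 fits that left out a mouse and 11 other alternatives, and 0 higher in all 19. The fourth was Ppp1r3c, called when every gene with at least 1 count in any mouse was kept (-0.81) and without WT mouse 4 (-1.08), while it was -0.42 without WT mouse 2. Ppp1r3b stayed between -2.78 and -2.11, Pygl between -1.31 and -0.82 and Gbe1 between -0.72 and -0.53. Pnpla2 stayed between -2.68 and -2.48.

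The 3 other glycogen genes called lower became 6 with every gene of at least 1 count kept (Pgm1, Gyg, Ppp1r3e, Ppp1r3f, Prkab1 and Mlx) and 2 to 5 with a mouse left out. The 2 called higher became 1 to 2 with a mouse left out. The replicate block left 3 members lower (Ppp1r3b -2.46) and 1719 genes called in place of 1872. Members near 0 changed sign. Pygb was 0.11 with total counts only, 0.010 with limma voom, 0.036 with at least 10 counts in every mouse, 0.013 without the muscle-rich mice, 0.045 with the muscle covariate and -0.22 to 0.12 with a mouse left out. Ugp2 was -0.013 with the muscle covariate and -0.075 to 0.20 with a mouse left out, Gys1 was 0.047 without the muscle-rich mice, and Pygm was -0.19 to 1.63 with a mouse left out. Total-count scaling moved the median of all genes to 0.13, and relative to that median Pygb was not above it. Causes were not tested. Prkab1 and Pygm could not be fitted with at least 10 counts in every mouse.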
